A study of Mus musculus with 12 samples.

Results

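The genes described here are 10 mouse genes of iron storage and iron transport, taken by their Ensembl identifiers from the 41388 genes counted in each library: the ferritin chains Fth1 and Ftl1, the ferritin cargo receptor Ncoa4, the heme-degrading enzyme Hmox1, the importers Tfrc, Slc11a1 and Slc11a2, the exporter Slc40a1, the siderophore-binding protein Lcn2 and the iron sensor Ireb2. All 10 passed the filter on low counts. The family was chosen by the measured values of Fth1, because it had the highest count in every stimulated library and its share of counts differed between genotypes there. Its levels and differences are therefore given without a test, and tests are given for the other 9 genes. The RNA came from thioglycolate-elicited peritoneal macrophages, which an irritant broth draws into the abdominal cavity. They were isolated on day 4, plated, and on the following day received either BSA-PBS, the vehicle, or LPS at 100 ng/ml, a bacterial endotoxin, together with the saturated fatty acid palmitate at 250 uM. Treatment lasted 8 h. All 4 groups carried LysM-Cre, a Cre recombinase expressed from the lysozyme M locus in myeloid cells: control libraries carried it alone, and the libraries labelled knockout came from cells labelled PPARg KO, made with the same driver. Each group had 3 libraries, 12 in all; the labels do not say whether replicates were separate mice or cultures, so the p-values measure only the spread between these libraries. The sources used here name no age, sex or strain background. In the text, "stimulated" means treated with palmitate plus LPS.

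Macrophages recycle most of the iron of the body by taking up senescent red cells, opening their heme with heme oxygenase and either storing the iron in ferritin or exporting it through ferroportin. Ferritin is a hollow shell built from heavy chains, which oxidize iron, and light chains, which help the iron core to form. Much of the pathway is controlled after transcription: when iron is scarce, iron regulatory proteins bind hairpins named iron-responsive elements, block translation where the hairpin lies in the 5′ UTR and protect the mRNA where it lies in the 3′ UTR. During infection and inflammation macrophages withhold iron from microbes, and several of these genes also respond to inflammatory signals.

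Hairpins of this kind were found in 4 of the 10 genes, in the 5′ UTR of 3 and the 3′ UTR of 1. Among these 4, their place separates genes whose translation is held back when iron is scarce from the gene whose mRNA is then protected. The search took a bulged C, any 5 bases, the 6-base loop CAGTGN and any 5 bases on the transcript strand, and kept matches whose 5 bases before the loop could pair with the 5 after it, G-T pairs allowed. Hairpins with another loop or an unpaired stem base would be missed, so a gene without a match may still hold one. Each sequence is 27 bases, read from the GENCODE M21 transcripts (build GRCm38), with the loop in capitals.
Fth1 5′ UTR, chr19:9982733-9982759, + strand: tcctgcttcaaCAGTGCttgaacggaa
Ftl1 5′ UTR, chr7:45459780-45459806, - strand: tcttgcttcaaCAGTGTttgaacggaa
Slc40a1 5′ UTR, chr1:45925466-45925492, - strand: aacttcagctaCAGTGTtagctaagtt
Tfrc 3′ UTR, chr16:32631220-32631246, + strand: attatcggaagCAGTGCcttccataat
Tfrc 3′ UTR, chr16:32631599-32631625, + strand: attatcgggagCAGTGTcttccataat
Tfrc 3′ UTR, chr16:32631664-32631690, + strand: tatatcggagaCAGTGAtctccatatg
Tfrc 3′ UTR, chr16:32631711-32631737, + strand: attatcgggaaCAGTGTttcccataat
The Fth1 and Ftl1 hairpins were identical at 25 of 27 bases, and Tfrc held 4 hairpins. Over all genes, 28 of 20544 with a 5′ UTR (0.136%) and 127 of 20920 with a 3′ UTR (0.607%) held a match. Among the other iron and heme genes described further on, a match was found in the 3′ UTR of Bola3, an iron-sulfur cluster assembly factor.

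The libraries held 17960457 to 22696385 counts. Pparg, the gene named in the labels, went against them with vehicle: it was at 61.0 to 62.3 TMM-normalised CPM (counts scaled to library size and between libraries) in the control vehicle libraries and at 91.0 to 111 in the vehicle libraries labelled knockout. After stimulation it was low in both genotypes, which overlapped, at 2.86 to 4.14 CPM in the controls and 3.59 to 5.04 in the libraries labelled knockout. A count over all exons does not show whether some exons were missing, so the words "labelled knockout" are kept throughout. Replicate 1 of the vehicle libraries labelled knockout stood apart by transcript length: against the other 2 libraries of its group, its median log2 difference was 0.50 over 694 genes shorter than 1.5 kb and -0.21 over 2322 genes longer than 5 kb. In that library the short ferritin mRNAs were high (Fth1 at 1.46 and Ftl1 at 1.49 times the mean of the other 2) and the long Tfrc mRNA was low (0.646 times). Many of the comparisons that use it are therefore also given without it. Lyz2, whose locus drives the Cre, was at a mean of 21.2 CPM in control vehicle, 26.6 in vehicle labelled knockout, 114 in stimulated controls and 84.3 in stimulated labelled knockout. Macrophage markers summed to 14054 to 22995 CPM over 8 genes, most of it from Lgals3 and Cd68. In control vehicle these 2 had means of 11637 and 4954 CPM, against 66.2 for Mertk. Between genotypes, Cd14 was called higher and Mertk lower with vehicle. After stimulation Adgre1 and Mertk were called higher in the libraries labelled knockout, and Cd14 and Lyz2 lower. Erythroid markers summed to at most 0.637 CPM. Markers of fibroblasts and mesothelium summed to 124 to 143 CPM in the stimulated controls and 183 to 333 CPM in the stimulated libraries labelled knockout. There 6 of these 9 markers were called higher, beside 10% of all genes. With vehicle the 9 markers summed to 116 to 136 CPM in the controls and 150 to 194 CPM in the libraries labelled knockout, and 0 were called. Neutrophil markers summed to 77.4 to 80.8 CPM and 111 to 115 CPM with vehicle. Of these 11 markers 5 were tested, and Cxcr2 and Mmp8 were called higher with vehicle, beside 2.11% of all genes. Cxcr2 had few counts, at most 27 in a library, with vehicle means of 0.40 CPM in the controls and 1.18 in the libraries labelled knockout. The part of these markers in the genotype differences was not tested. In bulk RNA, fewer cells of a type and less RNA per cell cannot be told apart.

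**Figure D1:**
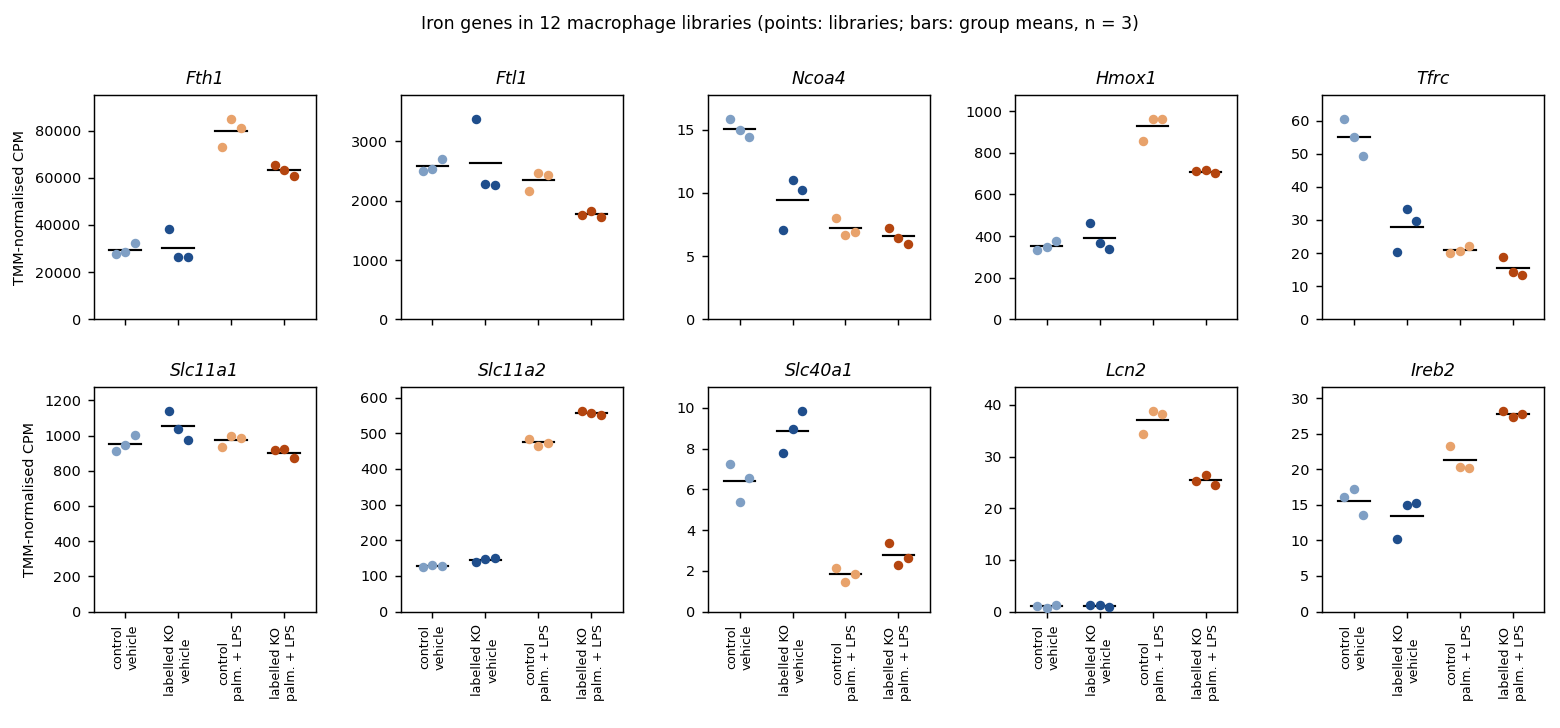
TMM-normalised CPM (vertical axes, linear from 0, 1 scale per gene) of the 10 iron genes in the 12 libraries, by group; points are libraries and bars group means. Fth1, Hmox1, Slc11a2, Lcn2 and Ireb2 lie higher after palmitate plus LPS and Tfrc, Ncoa4 and Slc40a1 lower in both genotypes; in Ncoa4, 1 vehicle library labelled knockout lies at 7.08, within the range of its stimulated counterparts.

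Levels of different genes were compared per exon length, as the deposited RPKM (reads scaled to exon length and library size). In the control vehicle libraries Fth1 was at 39092 ± 1680 RPKM (SD, n = 3) and Ftl1 at 2206 ± 16.4. Slc11a1 followed at 294, Hmox1 at 187, Slc11a2 at 23.1, Tfrc at 10.2, Ncoa4 at 3.89, Ireb2 at 3.09, Slc40a1 at 0.815 and Lcn2 at 0.529, and no neighbours in that order overlapped. The vehicle libraries labelled knockout had the same order except that Ireb2 (2.60) and Ncoa4 (2.38) changed places, and those overlapped. After palmitate plus LPS the order was Fth1, Ftl1, Hmox1, Slc11a1, Slc11a2, Lcn2, Ireb2, Tfrc, Ncoa4 and Slc40a1 in both genotypes. The only neighbours that overlapped there were Ireb2 (3.35) and Tfrc (3.08) in the controls. Hmox1 thus stood above Slc11a1 after stimulation, and Lcn2 moved from the last place to the sixth.

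Fth1 (ENSMUSG00000024661, chr19:9982703-9985092, + strand), the ferritin heavy chain, was the most abundant mRNA of the stimulated cells. It made up 3.29%, 3.31% and 3.55% of the counts in control vehicle replicates 1 to 3 and 3.94%, 2.99% and 3.06% in the vehicle libraries labelled knockout, where it ranked 3 in every library. After palmitate plus LPS it made up 6.84%, 7.58% and 7.33% in the controls and 5.54%, 5.47% and 5.30% in the libraries labelled knockout, and it ranked 1 in all of them. All 6 stimulated libraries lay above all 6 vehicle libraries, and the 3 stimulated controls lay above the 3 stimulated libraries labelled knockout. On the TMM scale Fth1 was at 27891, 28584 and 32229 CPM in control vehicle, 38246, 26318 and 26254 in vehicle labelled knockout, 72857, 85042 and 81017 in stimulated controls and 65367, 63243 and 60892 in stimulated labelled knockout. The log2 difference with treatment was 1.43 ± 0.13 (SE) in the controls and 1.06 ± 0.13 in the libraries labelled knockout. The log2 difference between genotypes was 0.03 ± 0.13 with vehicle and -0.33 ± 0.13 after stimulation. Without vehicle labelled knockout replicate 1, the vehicle genotype difference was -0.17 and the response in the libraries labelled knockout was 1.26, so that their response minus that of the controls went from -0.37 to -0.17.

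Ftl1 (ENSMUSG00000050708, chr7:45457944-45459884, - strand), the ferritin light chain, was not higher after treatment in either genotype. Its levels were 2503, 2533 and 2703 CPM in control vehicle, 3381, 2274 and 2268 in vehicle labelled knockout, 2155, 2462 and 2439 in stimulated controls and 1762, 1826 and 1731 in stimulated labelled knockout. The 3 stimulated libraries labelled knockout were the lowest of the 12. In the controls the treatment difference was -0.13 ± 0.12 log2 (edgeR adjusted p = 0.356). In the libraries labelled knockout Ftl1 fell by 0.57 ± 0.12 log2 with treatment (edgeR adjusted p = 0.00069), or by 0.36 ± 0.07 without vehicle replicate 1. The genotype difference was 0.03 ± 0.12 with vehicle (edgeR adjusted p = 0.913), -0.18 ± 0.07 without vehicle replicate 1 of the labelled knockout (adjusted p = 0.133), and -0.41 ± 0.12 after stimulation (edgeR adjusted p = 0.0358). That last call was lost, with adjusted p up to 0.118, when control vehicle replicate 1 or 2, stimulated control replicate 2 or 3, or any stimulated library labelled knockout was left out, and with the replicate block (adjusted p = 0.0665). The difference between the responses was -0.44 ± 0.18 log2 (edgeR adjusted p = 0.126). It was -0.23 ± 0.09 without vehicle labelled knockout replicate 1 (adjusted p = 0.0981), and -0.54 without replicate 3 of that group, where it passed the threshold (adjusted p = 0.042). It also passed with total-count scaling (edgeR adjusted p = 0.0398) and with no filter on low counts (edgeR adjusted p = 0.0037).

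The balance of heavy to light chain mRNA changed with treatment. The ratio of Fth1 RPKM to Ftl1 RPKM was 17.2, 17.5 and 18.5 in control vehicle and 17.5, 17.9 and 17.9 in vehicle labelled knockout. It was 52.3, 53.5 and 51.4 in stimulated controls and 57.4, 53.6 and 54.4 in stimulated labelled knockout. The vehicle libraries thus lay close together, the library with high ferritin counts included, and every stimulated library lay far above them. The stimulated genotypes did not overlap, and their means were 52.4 ± 1.04 (SD, n = 3) and 55.1 ± 2.0. No test of the ratio is given, because it contains Fth1.

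**Figure D2:**
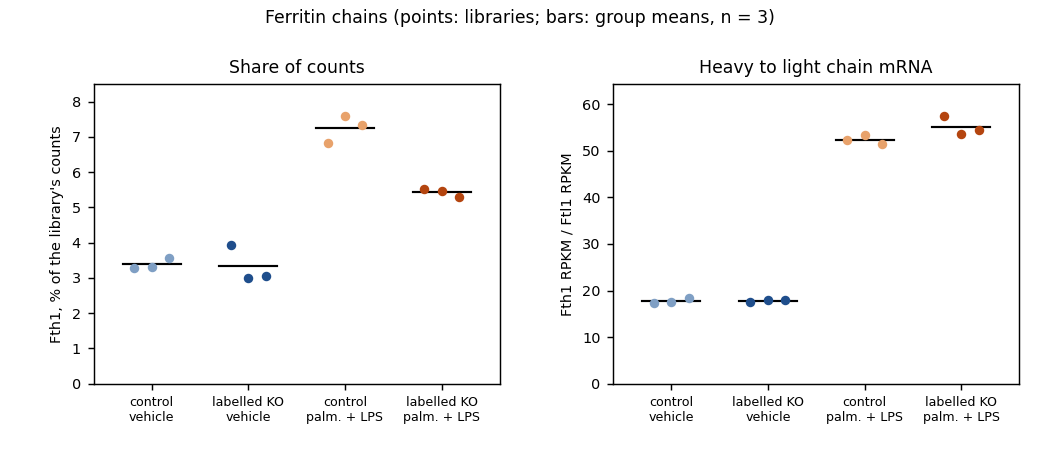
Left, the share of each library's counts held by Fth1 (percent); right, the ratio of Fth1 RPKM to Ftl1 RPKM; points are libraries and bars group means of 3. The share lies between 2.99% and 3.94% with vehicle and between 5.30% and 7.58% after palmitate plus LPS, and the ratio between 17.2 and 18.5 and between 51.4 and 57.4.

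Both ferritin genes have copies whose reads can be hard to assign. Gm6977, a pseudogene that shares 58 stretches of 50 bases with Fth1, held 0.440% to 0.483% of the count of Fth1 in every library, and Fth-ps2 had 11 to 31 counts. The 6 counted genes that share 50 or more such stretches with Ftl1 together held 0.646% of its count, and Ftl1-ps1, Ftl1-ps2 and Ftl2-ps each had at most 153 counts in a library. Among these 6, Gm22133, which shares 60 stretches with Ftl1, had 0 counts. Of the other members, Ncoa4 shares 1729 stretches with Gm6768, which held 8.66% of its count. Slc11a2 shares 255 stretches with Gm5475, which had 0 to 3 counts. The stretches were sought on both strands, and the sources used here do not give the strand setting of the counting.

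Ncoa4 (ENSMUSG00000056234, chr14:32159865-32179855, + strand), the receptor that carries ferritin to the lysosome for breakdown, was lower after treatment in both genotypes. It was at 15.9, 15.0 and 14.4 CPM in control vehicle, 7.08, 11.0 and 10.3 in vehicle labelled knockout, 8.05, 6.69 and 6.94 in stimulated controls and 7.24, 6.45 and 5.99 in stimulated labelled knockout. The control vehicle libraries stood above all others, and replicate 1 of vehicle labelled knockout lay among the stimulated libraries. Ncoa4 fell by 1.06 ± 0.15 log2 in the controls (edgeR adjusted p = 9.3e-06) and by 0.54 ± 0.15 in the libraries labelled knockout (edgeR adjusted p = 0.0051). In the latter Ncoa4 changed by -0.70 ± 0.12 log2 without vehicle replicate 1. With vehicle it was lower in the libraries labelled knockout by -0.67 ± 0.14 log2 (edgeR adjusted p = 0.0116), and by -0.50 ± 0.11 without replicate 1 of that group. The vehicle call was lost without control replicate 1 (adjusted p = 0.0682) or 2 (adjusted p = 0.0514) and with only the vehicle groups fitted (adjusted p = 0.101), and after stimulation the genotype difference was -0.14 ± 0.16 (edgeR adjusted p = 0.574).

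Hmox1 (ENSMUSG00000005413, chr8:75093591-75100596, + strand), heme oxygenase 1, releases iron from heme. Its levels were 331, 350 and 376 CPM in control vehicle, 465, 367 and 338 in vehicle labelled knockout, 857, 963 and 963 in stimulated controls and 711, 715 and 702 in stimulated labelled knockout. All stimulated libraries stood above all vehicle libraries, and the stimulated libraries labelled knockout lay together below the stimulated controls. Hmox1 rose 2.64-fold in the controls (1.40 ± 0.10 log2, edgeR adjusted p = 7.2e-09) and 1.82-fold in the libraries labelled knockout (0.86 ± 0.10 log2, edgeR adjusted p = 1.8e-06). The genotype difference was 0.15 ± 0.10 log2 with vehicle (edgeR adjusted p = 0.493), 0.0028 ± 0.07 without vehicle labelled knockout replicate 1 (adjusted p = 0.996), and -0.39 ± 0.10 after stimulation (edgeR adjusted p = 0.0178). The difference between the responses was itself past the threshold, at -0.53 ± 0.14 log2 (edgeR adjusted p = 0.0357), and it was -0.39 ± 0.09 without vehicle labelled knockout replicate 1 (adjusted p = 0.0036). Both calls were lost when stimulated control replicate 2 or 3 or any stimulated library labelled knockout was left out, with adjusted p up to 0.0748 for the stimulated genotype difference. The response difference was also lost without control vehicle replicate 1 or 2, with adjusted p up to 0.104, and with the replicate number as a block (adjusted p = 0.0811).

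Of the importers, Tfrc (ENSMUSG00000022797, chr16:32608920-32632794, + strand), the transferrin receptor, takes up transferrin-bound iron from outside the cell and carries the 4 hairpins of the 3′ UTR shown above. Its levels were 60.5, 55.0 and 49.3 CPM in control vehicle, 20.4, 33.4 and 29.8 in vehicle labelled knockout, 19.9, 20.7 and 22.1 in stimulated controls and 18.9, 14.2 and 13.5 in stimulated labelled knockout. The control vehicle libraries were the highest, with no overlap with any other group. With vehicle, Tfrc was 1.97-fold lower in the libraries labelled knockout (-0.98 ± 0.15 log2, edgeR adjusted p = 0.0012), and it was lower by -0.80 ± 0.11 log2 without replicate 1 of that group (adjusted p = 1.1e-05). This call held in all 12 fits that each left out 1 library. Treatment lowered Tfrc 2.63-fold in the controls (-1.40 ± 0.16 log2, edgeR adjusted p = 1.1e-06) and 1.80-fold in the libraries labelled knockout (-0.85 ± 0.16 log2, edgeR adjusted p = 0.00023). The latter difference was -1.03 ± 0.11 log2 without vehicle labelled knockout replicate 1. After stimulation the genotype difference was -0.43 ± 0.17 log2 (edgeR adjusted p = 0.0888), and the difference between the responses was 0.55 ± 0.23 (edgeR adjusted p = 0.139). The response difference was 0.37 ± 0.15 without vehicle labelled knockout replicate 1 (edgeR adjusted p = 0.119). The stimulated genotype difference passed the threshold without vehicle labelled knockout replicate 1 (-0.43, adjusted p = 0.0036) and without stimulated labelled knockout replicate 1 (-0.60, adjusted p = 0.0435). It also passed with no filter on low counts (edgeR adjusted p = 0.0052) and with only the stimulated groups fitted (edgeR adjusted p = 0.0065). The response difference passed with no filter (edgeR adjusted p = 0.0179).

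Slc11a2 and Slc11a1 are proton-coupled metal transporters: Slc11a2 (DMT1) moves iron out of the endosome, and Slc11a1 (NRAMP1) moves metals out of the phagosome and is known for resistance to intracellular bacteria. Slc11a2 (ENSMUSG00000023030, chr15:100387898-100425072, - strand) was at 125, 130 and 129 CPM in control vehicle, 139, 147 and 149 in vehicle labelled knockout, 483, 465 and 474 in stimulated controls and 563, 556 and 550 in stimulated labelled knockout. On this TMM scale the 4 groups formed 4 separate levels with little spread. Scaled to library total alone, the vehicle genotypes overlapped, at 147, 150 and 142 CPM in the controls and 143, 168 and 174 in the libraries labelled knockout. It rose 3.71-fold in the controls (1.89 ± 0.07 log2, edgeR adjusted p = 6.7e-13) and 3.84-fold in the libraries labelled knockout (1.94 ± 0.07 log2, edgeR adjusted p = 4.6e-13). Between genotypes it was higher after stimulation by 0.23 ± 0.07 log2 (edgeR adjusted p = 0.0254) and differed with vehicle by 0.18 ± 0.07 (edgeR adjusted p = 0.165). The stimulated call was lost when any of the 6 stimulated libraries was left out, with adjusted p from 0.0611 to 0.0949, with the replicate block (adjusted p = 0.0652) and with no filter on low counts (adjusted p = 0.102). Without vehicle labelled knockout replicate 1, the vehicle difference of 0.22 ± 0.06 passed the threshold (adjusted p = 0.027). The vehicle difference also passed with the DESeq2 Wald test (adjusted p = 0.0089).

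Slc11a1 (ENSMUSG00000026177, chr1:74375195-74386062, + strand) varied least. It was at 911, 944 and 1001 CPM in control vehicle, 1140, 1038 and 976 in vehicle labelled knockout, 937, 997 and 988 in stimulated controls and 917, 921 and 871 in stimulated labelled knockout. The first 3 of these groups overlapped, and the stimulated libraries labelled knockout overlapped only control vehicle. Its treatment difference was 0.03 ± 0.08 log2 in the controls (edgeR adjusted p = 0.722). In the libraries labelled knockout it fell by 0.22 ± 0.08 (edgeR adjusted p = 0.0181), a call lost without stimulated replicate 3 of that genotype (adjusted p = 0.0782) and with only that genotype fitted (adjusted p = 0.0742). Without vehicle labelled knockout replicate 1 that difference was -0.16 ± 0.06 (edgeR adjusted p = 0.0279). With vehicle the genotype difference was 0.14 ± 0.08 log2 (edgeR adjusted p = 0.376), or 0.08 ± 0.06 without that library.

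Slc40a1 (ENSMUSG00000025993, chr1:45908068-45926523, - strand), ferroportin, is the iron exporter of macrophages, and few reads came from it. It had 194, 140 and 130 counts in control vehicle, 149, 225 and 239 in vehicle labelled knockout, 41, 27 and 36 in stimulated controls and 57, 42 and 50 in stimulated labelled knockout. In TMM-normalised CPM these were 7.25, 5.36 and 6.57, then 7.81, 8.96 and 9.86, then 2.16, 1.46 and 1.87, and then 3.35, 2.28 and 2.63. The libraries labelled knockout lay above the controls within each treatment, and the stimulated libraries lay below all vehicle libraries. Slc40a1 fell by 1.80 ± 0.19 log2 with treatment in the controls (edgeR adjusted p = 4.9e-07) and by 1.70 ± 0.18 in the libraries labelled knockout (edgeR adjusted p = 3.8e-07). The genotype differences of 0.48 ± 0.16 log2 with vehicle (edgeR adjusted p = 0.12) and 0.58 ± 0.22 after stimulation (edgeR adjusted p = 0.0787) did not pass the threshold. Without vehicle labelled knockout replicate 1 both did, at 0.56 ± 0.15 (adjusted p = 0.0158) and 0.58 ± 0.21 (adjusted p = 0.0326).

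Lcn2 (ENSMUSG00000026822, chr2:32384633-32387797, - strand), lipocalin 2, binds bacterial siderophores and so withholds iron from bacteria. It had 30, 20 and 26 counts in control vehicle, 23, 31 and 20 in vehicle labelled knockout, 652, 720 and 738 in stimulated controls and 431, 488 and 467 in stimulated labelled knockout. As CPM it was at 34.3, 38.9 and 38.2 in stimulated controls and 25.4, 26.5 and 24.5 in stimulated labelled knockout, against at most 1.31 with vehicle. The stimulated controls lay above the stimulated libraries labelled knockout, and the vehicle groups overlapped. It rose 35.2-fold in the controls (5.14 ± 0.15 log2, edgeR adjusted p = 7e-14) and 23.4-fold in the libraries labelled knockout (4.55 ± 0.16 log2, edgeR adjusted p = 3.9e-13). After stimulation it was lower in the libraries labelled knockout by -0.55 ± 0.11 log2 (edgeR adjusted p = 0.0036), and this call held in all 12 fits that each left out 1 library, with adjusted p from 1.4e-05 to 0.0249. The difference between the responses was -0.59 ± 0.25 (edgeR adjusted p = 0.147). Lcn2 is also a granule gene of neutrophils; of the 11 neutrophil markers, S100a9, Ly6g, Mpo, Elane, Ngp and Retnlg had at most 4 counts in any library. In the stimulated genotype comparison Csf3r and Mmp8 were called higher and S100a8 lower, and the list summed to 107 to 116 CPM in the controls and 144 to 174 CPM in the libraries labelled knockout; its part in the Lcn2 difference was not tested.

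Ireb2 (ENSMUSG00000032293, chr9:54863755-54912534, + strand) encodes iron regulatory protein 2, which binds the hairpins printed above. It was at 16.1, 17.2 and 13.5 CPM in control vehicle, 10.2, 14.9 and 15.3 in vehicle labelled knockout, 23.3, 20.4 and 20.2 in stimulated controls and 28.2, 27.4 and 27.8 in stimulated labelled knockout. The stimulated libraries labelled knockout were the highest and the vehicle groups overlapped. Ireb2 rose 1.36-fold in the controls (0.44 ± 0.13 log2, edgeR adjusted p = 0.0083) and 2.05-fold in the libraries labelled knockout (1.04 ± 0.13 log2, edgeR adjusted p = 4.4e-06). The latter rise was 0.88 ± 0.10 log2 without vehicle labelled knockout replicate 1. With vehicle the genotype difference was -0.21 ± 0.14 log2 (edgeR adjusted p = 0.465), or -0.05 ± 0.10 without that library. With libraries scaled by total count alone, the rise in the controls was 0.11 and did not pass the threshold (adjusted p = 0.569). The stimulated genotype difference was 0.39 ± 0.13 log2 (edgeR adjusted p = 0.0591), and the difference between the responses was 0.59 ± 0.19 (edgeR adjusted p = 0.0651). Both passed the threshold without vehicle labelled knockout replicate 1, with adjusted p of 0.00098 and 0.026, and both without replicate 3 of that group, with adjusted p of 0.0445 and 0.0287. The response difference also passed without replicate 2 (adjusted p = 0.0472). Both passed with the DESeq2 Wald test (adjusted p = 0.0355 and 0.0336) and with no filter (edgeR adjusted p = 0.0243 and 0.0138). With only the stimulated groups fitted, the stimulated difference passed (edgeR adjusted p = 0.0016).

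**Figure D3:**
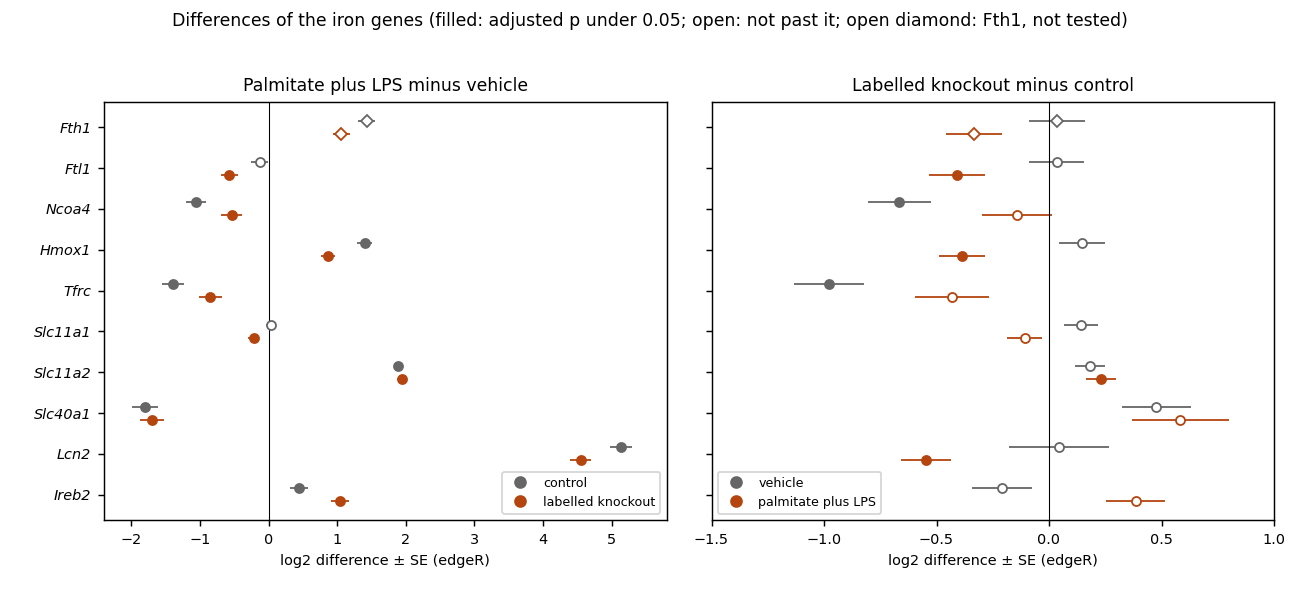
Log2 differences ± SE (horizontal axes, edgeR fit of all 12 libraries) of the 10 genes: left, palmitate plus LPS minus vehicle in each genotype; right, labelled knockout minus control with each treatment. Filled symbols passed an adjusted p of 0.05; treatment differences reach 5.14 for Lcn2 while no genotype difference exceeds 1 in size.

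Set beside all genes tested, treatment changed most of these genes and most other genes too. In the controls 7 of the 9 tested members passed the threshold, 4 higher and 3 lower, where 66.7% of all 12914 genes passed, 32.0% higher and 34.7% lower. All 9 passed in the libraries labelled knockout, 4 higher and 5 lower, where 69.4% of all genes passed, 33.7% higher and 35.6% lower. The higher genes were Hmox1, Slc11a2, Lcn2 and Ireb2 in each genotype, and the lower genes were Ncoa4, Tfrc and Slc40a1, joined in the libraries labelled knockout by Ftl1 and Slc11a1. The 2 treatment comparisons share no libraries. The median log2 difference of the 9 was 0.03 in the controls and -0.22 in the libraries labelled knockout, against -0.05 and -0.06 over all genes. Scaling by total count alone moved those medians over all genes to -0.38 and -0.42, and the share of calls that were higher from 48.0% to 29.2% and from 48.6% to 28.9%. Under that scaling Ftl1 in the controls was called lower (-0.47 log2, adjusted p = 0.00039), and Slc11a1 changed sign and was called lower (-0.30, adjusted p = 8.7e-05).

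Between genotypes fewer members differed. With vehicle 2 of the 9 passed, Tfrc and Ncoa4, both lower in the libraries labelled knockout, where 3.8% of all genes passed, 2.11% higher and 1.69% lower. Without vehicle labelled knockout replicate 1 the count was 4, with Slc40a1 and Slc11a2 higher, and without control vehicle replicate 1 or 2 it was 1. After stimulation 4 of the 9 passed, Slc11a2 higher and Ftl1, Hmox1 and Lcn2 lower, where 16.1% of all genes passed, 10% higher and 6.1% lower. The choice of Fth1 used this contrast, and nothing is read from that comparison of shares. The stimulated count was 7 without vehicle labelled knockout replicate 1. It was 1, Lcn2, without stimulated control replicate 2 or 3 or stimulated labelled knockout replicate 2 or 3, and 2 without stimulated labelled knockout replicate 1 and with the replicate block. The median log2 difference of the 9 was 0.04 with vehicle and -0.14 after stimulation, against 0.01 and -0.01 over all genes. The share of calls over all genes that were higher after stimulation went from 62.1% to 34.8% with total-count scaling, under which Slc11a2 was not called (0.15 log2, adjusted p = 0.173) and Slc11a1 was called lower (-0.19, adjusted p = 0.016).

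In the test of whether the response differed between genotypes, Hmox1 alone of the 9 passed, with a lower response in the libraries labelled knockout, where 8.05% of all genes passed, 4.7% higher and 3.35% lower. The count ranged from 0 to 3 over the 12 fits that each left out 1 library. The median of the 9 was 0.05 log2, against -0.01 over all genes. The share of calls that were higher over all genes went from 58.4% to 33.0% with total-count scaling, where 3 members were called, all lower.

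The rest of the pathway was followed with 58 other iron and heme genes, of which 52 had enough counts to be tested; Tfr2, Cybrd1, Ftmt, Heph, Hephl1 and Hamp2 did not. With treatment 14 rose and 26 fell in the controls, and 15 rose and 25 fell in the libraries labelled knockout, beside the 66.7% and 69.4% of all genes that passed. Their median log2 difference was -0.25 and -0.38. The rising gene with the smallest p was Slc25a37 (mitoferrin 1), which imports iron into mitochondria, in each genotype. It went from 15.3 ± 1.44 to 144 ± 5.50 CPM (SD, n = 3) in the controls, a log2 difference of 3.24 ± 0.11. The falling gene with the smallest p was Steap3, the ferrireductase of the transferrin cycle endosome. It went from 207 ± 5.54 to 19.7 ± 0.94 CPM in the controls, a log2 difference of -3.39 ± 0.09, and by -3.56 ± 0.09 in the libraries labelled knockout.

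Iron uptake and reduction thus held members that moved in opposite directions. Slc39a14 (ZIP14), an importer of iron not bound to transferrin, rose by 2.01 ± 0.13 log2 in the controls and 2.03 ± 0.13 in the libraries labelled knockout. Hfe, which acts with the transferrin receptors in iron sensing, fell by 2.27 ± 0.11 and by 2.48 ± 0.11. Among the iron oxidases, Cp (ceruloplasmin), which oxidizes exported iron, rose by 2.89 ± 0.19 log2 in the libraries labelled knockout. In the controls it went from a mean of 1.51 to 11.1 CPM. Of the 9 genes of heme transport and breakdown, Abcg2, an exporter of heme and porphyrins, fell by 1.92 ± 0.14 log2 in the controls. In the libraries labelled knockout it went from a mean of 9.75 to 2.92 CPM. Blvra, which reduces biliverdin, fell by 1.57 ± 0.11 log2 in the libraries labelled knockout and went from a mean of 230 to 89.3 CPM in the controls. Alas1, the rate-limiting enzyme of heme synthesis, rose by 1.53 ± 0.08 log2 in the controls and went from a mean of 515 to 1005 CPM in the libraries labelled knockout.

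**Figure D4:**
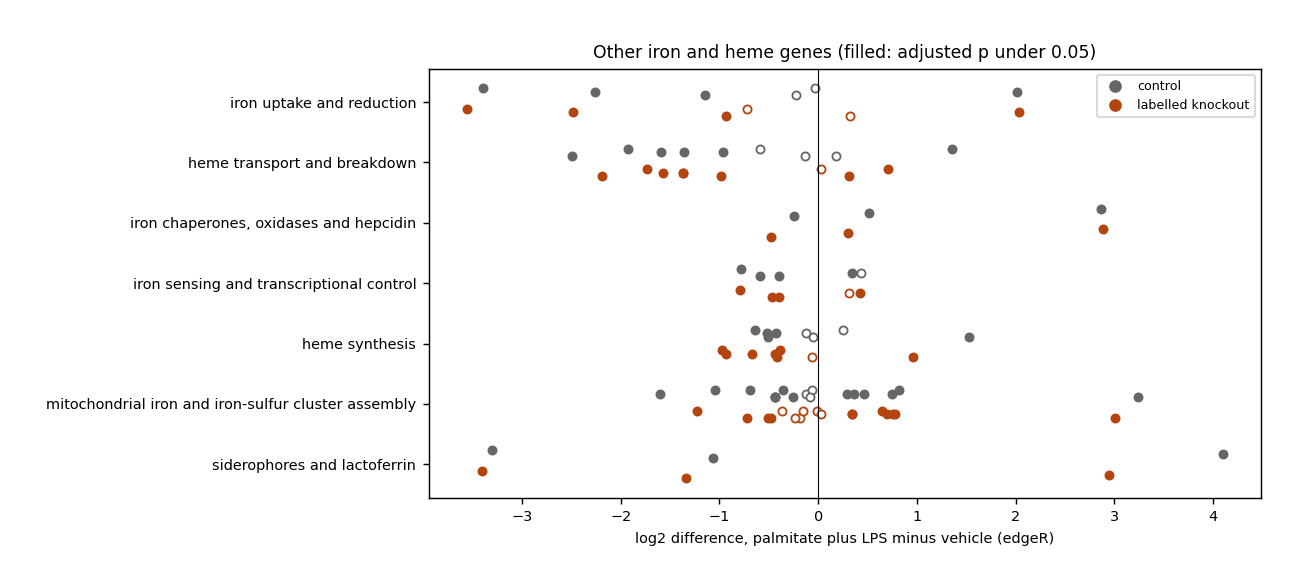
Log2 difference of 51 other iron and heme genes with palmitate plus LPS (horizontal axis), by role (rows) and genotype (colour); filled symbols passed an adjusted p of 0.05, and Hamp, with 0 counts in the control vehicle libraries, is left out. Most roles hold genes on both sides of 0, from -3.56 for Steap3 to 3.24 for Slc25a37 among the genes named.

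Between genotypes, 2 of the 52 were called with vehicle, a share near the 3.8% of all genes, both lower: Trf (transferrin) at -0.71 ± 0.11 log2 (edgeR adjusted p = 0.0014) and Nfs1, the cysteine desulfurase of iron-sulfur cluster assembly, at -0.30 ± 0.08 (edgeR adjusted p = 0.0448). After stimulation 3 were higher and 5 lower, a share near the 16.1% of all genes. The higher genes were Steap4, a metalloreductase, by 0.83 ± 0.26 log2, Hamp (hepcidin) by 0.66 ± 0.20 and Cp by 0.55 ± 0.17. For Cp the stimulated genotypes overlapped, at 10.1 to 12.6 CPM in the controls and 12.1 to 20.7 in the libraries labelled knockout. Among the lower genes of smallest p were Slc48a1 (HRG1), which moves heme out of the phagolysosome, at -0.83 ± 0.08 log2, and Blvra at -0.47 ± 0.11. Also lower were Alas1 (-0.33 ± 0.08) and Trf (-0.50 ± 0.13), named after their values were seen. The calls of Trf with vehicle and of Slc48a1 after stimulation held in all 12 fits that each left out 1 library. Nfs1 held in 2 of them, without vehicle labelled knockout replicate 1 or stimulated labelled knockout replicate 1. After stimulation the calls of Cp, Hamp, Steap4, Blvra, Alas1 and Trf were each lost without stimulated control replicate 3. Leaving out stimulated control replicate 1 also ended the Cp and Hamp calls, stimulated control replicate 2 the Hamp, Steap4, Blvra and Alas1 calls, and control vehicle replicate 3 the Steap4 call. Of the stimulated libraries labelled knockout, replicate 1 or 3 ended the Cp, Hamp and Steap4 calls, replicate 2 the Alas1 and Trf calls, and replicate 3 the Trf call. With the replicate block the calls of Nfs1 (adjusted p = 0.101), Cp (0.0535), Hamp (0.0625) and Steap4 (0.0704) were lost. Hamp had 0 counts in each control vehicle library and 45, 57 and 61 in the stimulated controls, at least 69.5-fold higher against a floor of 3 counts over the vehicle group. It had 1, 0 and 1 counts in vehicle labelled knockout and 77, 70 and 100 in stimulated labelled knockout. The second hepcidin gene, Hamp2, had 9 counts over all libraries.

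The response of 3 of the 52 differed between genotypes, where 8.05% of all genes passed: Slc48a1, Blvrb and Alas1. That count ranged from 2 to 8 over the 12 fits that each left out 1 library. Slc48a1 was at 280, 276 and 293 CPM in control vehicle, 271, 286 and 308 in vehicle labelled knockout, 260, 259 and 257 in stimulated controls and 134, 155 and 148 in stimulated labelled knockout. The low level was seen only in the stimulated libraries labelled knockout, and the response difference was -0.85 ± 0.11 log2 (edgeR adjusted p = 0.00035). Blvrb, a second biliverdin reductase, rose from 257 ± 23.9 to 659 ± 53.5 CPM in the controls and from 347 ± 67.8 to 565 ± 25.6 CPM in the libraries labelled knockout, a response difference of -0.65 ± 0.16 log2 (edgeR adjusted p = 0.0267). Alas1 rose from 438 ± 32.2 to 1264 ± 85.0 CPM in the controls and from 515 ± 33.1 to 1005 ± 30.3 CPM in the libraries labelled knockout, a response difference of -0.56 ± 0.12 log2 (edgeR adjusted p = 0.0092). The Slc48a1 and Alas1 calls held in all 12 fits that each left out 1 library, with adjusted p up to 0.0352, and the Blvrb call in 6 of them: it was lost without control vehicle replicate 1 or 2, stimulated control replicate 2 or 3, or stimulated labelled knockout replicate 1 or 3, with adjusted p up to 0.0828, and with the replicate block (adjusted p = 0.0662). Erythroid markers had at most 11 counts for any of 8 genes in a library.

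The genes with a profile most like that of Fth1 were found by the root mean square difference of log2 CPM over the 12 libraries, after each gene was centred on its own mean. The closest was Atp6v1e1, a subunit of the proton pump that acidifies lysosomes, at 0.027 log2 (Pearson r = 0.999, a description over libraries that fall into treatment groups). Its count was 1.94% to 2.08% of that of Fth1 in every library. It was not among the genes that share 50 or more stretches of 50 bases with Fth1, and whether reads of Fth1 were counted to it was not tested. With members, predicted genes and pseudogenes left out, the next were the proteasome subunits Psma6 (0.095), Psmb6 (0.118) and Psmd14 (0.12) and the selenoprotein Selenos (0.115). Of the iron genes, Hmox1 lay at 0.090 and Alas1 at 0.124, and the pseudogene Gm6977 lay at 0.040. Hmox1 and Gm6977, left out of that ranking, were thus closer to Fth1 than Psma6.

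**Figure D5:**
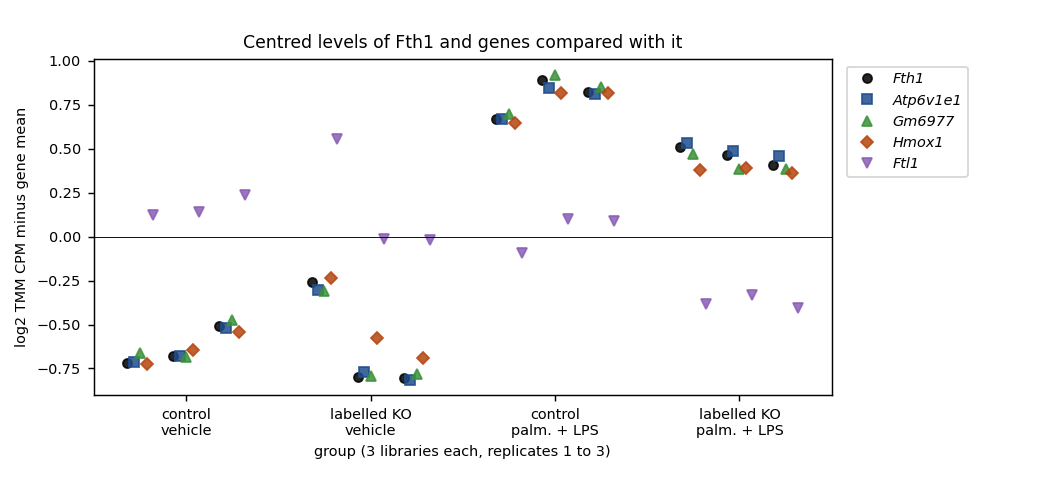
Log2 TMM-normalised CPM minus each gene's mean over 12 libraries (vertical axis) for Fth1, Atp6v1e1, Gm6977, Hmox1 and Ftl1, by group; each symbol is 1 library and neighbouring symbols are shifted sideways. Atp6v1e1 and Gm6977 lie on Fth1 in every library, Hmox1 lies close to it, and Ftl1 does not share its rise after palmitate plus LPS.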

How the data were processed

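RNA sequencing tables of 12 libraries were used. Per the submitters' processing notes, reads were handled with bcl2fastq 2.0, STAR 2.0.4b, Subread and featureCounts 1.45 on build GRCm38. The sources used here do not name the annotation release or the strand setting. Per the labels' protocols, RNA was purified on columns and libraries were made with the SMARTer v1 kit. Each deposited table gives raw counts, and the authors' CPM and RPKM, recomputed here from count, library total and exon length with the same result.

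Tests used the deposited counts with edgeR 4.0.16 (R 4.3.3): filterByExpr by group, which left 12914 genes, TMM scaling, and the quasi-likelihood F-test with 1 mean per group over all 12 libraries. P-values were adjusted over all genes by Benjamini-Hochberg, threshold 0.05. The fit was tested on simulated data. Differences are log2 ± SE, the difference divided by the square root of F. No 2 replicates agreed within sampling noise.

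The members and gene lists were chosen with earlier results of these data known. All 10 members were named, with, per comparison, up to 3 other pathway genes higher and 3 lower of smallest p, and 5 genes most like Fth1 of at least 10 CPM. Members, predicted genes and pseudogenes were left out of those 5. The result of 1 gene that this rule names is not reported here. The alternatives were DESeq2 1.42.0, total-count scaling, Fth1 left out, no filter, only the groups compared, the replicate block and each library left out.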

Additional observations from a re-analysis of the deposited data

Results flagged for a closer look

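For 4 of the genes named, the response to palmitate plus LPS differed between the genotypes in the edgeR test of that difference. They were 1 of the 9 tested members and 3 of the 52 other pathway genes, where 8.05% of all genes passed. Nothing about the pathway is read from these counts. The response of the libraries labelled knockout minus that of the controls was -0.53 log2 for Hmox1, -0.85 for Slc48a1, -0.65 for Blvrb and -0.56 for Alas1. The Hmox1 call was lost in 7 and the Blvrb call in 6 of the 12 fits that each left out 1 library, and both were lost with the replicate block. Hmox1, Blvrb and Alas1 rose in both genotypes and Slc48a1 fell in the libraries labelled knockout. Hmox1 releases iron from heme, Blvrb reduces biliverdin, Slc48a1 moves heme to the cytosol and Alas1 starts heme synthesis.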

How the results depend on the processing

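Under the 18 alternative settings, of which 12 each left out 1 library, the treatment counts moved by less than 1.5 times, and the genotype counts moved more. The counts for the 9 members and the vehicle genotype, stimulated genotype and response comparisons ranged over the fits with 1 library left out from 1 to 4, 1 to 7 and 0 to 3, and for treatment they were 7 in the controls in every such fit and 8 to 9 in the libraries labelled knockout. For the other pathway genes these ranges were 1 to 6, 2 to 19 and 2 to 8, and for all genes 261 to 789, 1227 to 4080 and 428 to 1962. Fitting only the compared groups gave 1 member, 1 other pathway gene and 229 genes for the vehicle genotype comparison, and 18 other pathway genes and 3811 genes after stimulation. DESeq2 called 4 other pathway genes with vehicle, and 2 members and 7 other pathway genes in the response comparison. With no filter on low counts the calls were 5 other pathway genes and 960 genes with vehicle, 15 other pathway genes after stimulation, and 4 members, 10 other pathway genes and 1875 genes in the response comparison. Total-count scaling called 15 other pathway genes after stimulation, and 3 members and 7 other pathway genes in the response comparison. The cause of these moves was not tested. The replicate numbers of the titles gave no sign of pairing the libraries. Deviations of same-numbered libraries correlated at -0.309 to 0.067 over 18 pairs, and 1 of 12 libraries correlated best with one of its own number. A pairing weaker than the other differences between these libraries could be missed. With the replicate block, 1 other pathway gene was called with vehicle, 2 members and 5 other pathway genes were called after stimulation, and the edgeR response comparison called 0 members (6 at an unadjusted p under 0.05) and 514 genes.

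Signs changed only in differences that had not passed the threshold or were not tested. With vehicle, the genotype difference of Fth1 was -0.0234 log2, that of Ftl1 -0.0255 and that of Lcn2 -0.00296 under total-count scaling. With 1 library left out these ranged from -0.17 to 0.13, from -0.18 to 0.13 and from -0.16 to 0.22. Under that scaling the treatment difference of Fth1 was 1.098 in the controls and 0.71 in the libraries labelled knockout. The treatment difference of Slc11a1 in the controls was -0.30 under total-count scaling, and the response difference of Slc40a1 ranged from -0.055 to 0.24 with 1 library left out. Precision was limited by 3 libraries a group, and for Slc40a1, with 27 to 57 counts in the stimulated libraries, and Lcn2, with 20 to 31 in the vehicle libraries, also by depth.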
